A study of Sus scrofa with 32 samples.

Results

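The genes described here are 3 chains of the pig major histocompatibility complex class II molecules, SLA-DRA, SLA-DQA1 and SLA-DQB1, and 2 genes of macrophages, SIGLEC1 and AIF1, in the liver of the pig fetus. Their members are every non-control probe of the array whose transcript accession maps to one of these genes in the RefSeq pig annotation, which gave 11 of 43603 probes and 5 of 1904 gene symbols. SLA-DRA had 4 probes, SLA-DQA1 had 3, AIF1 had 2, and SLA-DQB1 and SIGLEC1 had 1 each. The genes were chosen by measured values, the rise of their probes between days in the control fetuses, so the control course is given as a description with no test, and tests are given for the runt course and for runts against controls.

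Class II molecules are pairs of an alpha and a beta chain that carry peptides from engulfed proteins to the surface of antigen-presenting cells, where CD4 T cells read them. Macrophages, dendritic cells and B cells make them, and the liver's own macrophages, the Kupffer cells, settle in the sinusoids before birth. SIGLEC1 (sialoadhesin, CD169) is a sialic acid receptor of tissue macrophages, and AIF1 (IBA1) is a calcium-binding protein of the macrophage cytoskeleton that monocytes and other macrophages also make.

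Liver was taken from runts and from controls at gestational days 37, 50, 70 and 110, with 4 fetuses of each kind at each day and 1 array per fetus, 32 arrays in all. All fetuses came from inseminated gilts that had lost 1 uterine horn and 1 ovary, so both kinds grew in a crowded uterus, and each day was sampled from 4 pregnancies. The protocol speaks of littermate pairs, but no label says which runt and control shared a litter. Total RNA of each liver was labelled with Cy3 and scanned as 1 colour. Levels below are log2 processed signals set against each array's own 75th percentile, so that 0 stands for a signal at that percentile, and levels of different probes are not comparable.

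On the 32 arrays the 75th percentile of intensity ran from 177 to 460, and 51.3 to 69.4% of probes were well above background. All 18 measured hepatocyte markers of a list were above background on at least 1 array of each of the 8 groups. The array of day 50 runt replicate 1 sat alone on its slide, at the position that held day 37 on the other slides, and was scanned separately. On the other slides each position held 1 day, so day and array position cannot be told apart. Of the member probes, 10 were well above background on all 32 arrays and the SIGLEC1 probe on 17. In whole liver, fewer cells of a type and less RNA per cell cannot be told apart.

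The class II genes were low in the livers of day 37 and day 50 and high at days 70 and 110, in runts as in controls. SLA-DRA, the alpha chain of the DR molecule, is read first at its brightest probe (A_72_P176171). At day 37 its level was 0.54, -0.07, -0.36 and 0.47 in the 4 runts, against 0.10, 0.01, -0.17 and -0.13 in the 4 controls. At day 50 it was 0.22, 0.83, 0.59 and 1.17 in runts, against -0.04, 0.89, 0.49 and 1.20 in controls. The arrays of these days overlapped, between the days and between runts and controls. At day 70 SLA-DRA was at 2.51, 2.39, 2.98 and 3.38 in runts, against 2.35, 2.14, 2.13 and 2.82 in controls. At day 110 it was at 4.40, 3.99, 4.00 and 5.20 in runts, against 4.44, 4.21, 3.62 and 5.01 in controls. Every day 70 array lay above every day 50 array of its kind, and every day 110 array above every day 70 array of its kind, while runts and controls of one day overlapped.

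SLA-DQA1, the alpha chain of the DQ molecule, followed the same order at its brightest probe (A_72_P244477). At day 37 the runts were at 0.18, -0.82, -1.34 and -0.33 and the controls at -0.12, -0.64, -0.97 and -0.91. At day 50 the runts were at -0.84, 0.36, 0.25 and 0.44 and the controls at -0.52, 0.43, -0.29 and 0.55. The lowest of these day 50 runts is the array that was scanned separately. At day 70 the runts were at 1.93, 2.30, 2.28 and 2.74 and the controls at 2.00, 1.66, 1.29 and 2.28. At day 110 the runts were at 3.98, 3.41, 3.06 and 4.19 and the controls at 3.62, 3.54, 3.24 and 4.00. As for SLA-DRA, the ranges of days 50 and 70 and those of days 70 and 110 did not meet. SLA-DQB1, the beta chain that pairs with it, averaged -0.36 ± 0.48, 0.09 ± 0.55, 1.82 ± 0.36 and 3.30 ± 0.45 in runts of days 37, 50, 70 and 110, and -0.51 ± 0.33, 0.06 ± 0.48, 1.47 ± 0.26 and 3.15 ± 0.25 in controls of the same days (SD, n = 4 each). At the brightest probe of all 3 genes the 8 group means had one order: day 37, day 50, day 70 and day 110. Controls of a day were below the runts of that day. Within each day this difference lay inside the spread of the arrays, as did the step between days 37 and 50. Other probes differed. SLA-DQA1 probe A_72_P227742 averaged -1.83 in runts and -1.74 in controls of day 37. At day 50 runts were below controls at SLA-DRA probe A_72_P328748 (0.50 and 0.59) and SLA-DQA1 probe A_72_P233002 (-2.14 and -2.12). The ranges of days 37 and 50 did not meet in runts at A_72_P348363 and A_72_P227742, nor in controls at A_72_P328748. Here and wherever ranges of different days are compared, the share of all tested probes whose ranges did not meet was not counted. In runts 36.9% of all tested probes had an unadjusted p under 0.05 by limma between days 70 and 50. Between days 110 and 70 it was 35.3%.

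**Figure D1:**
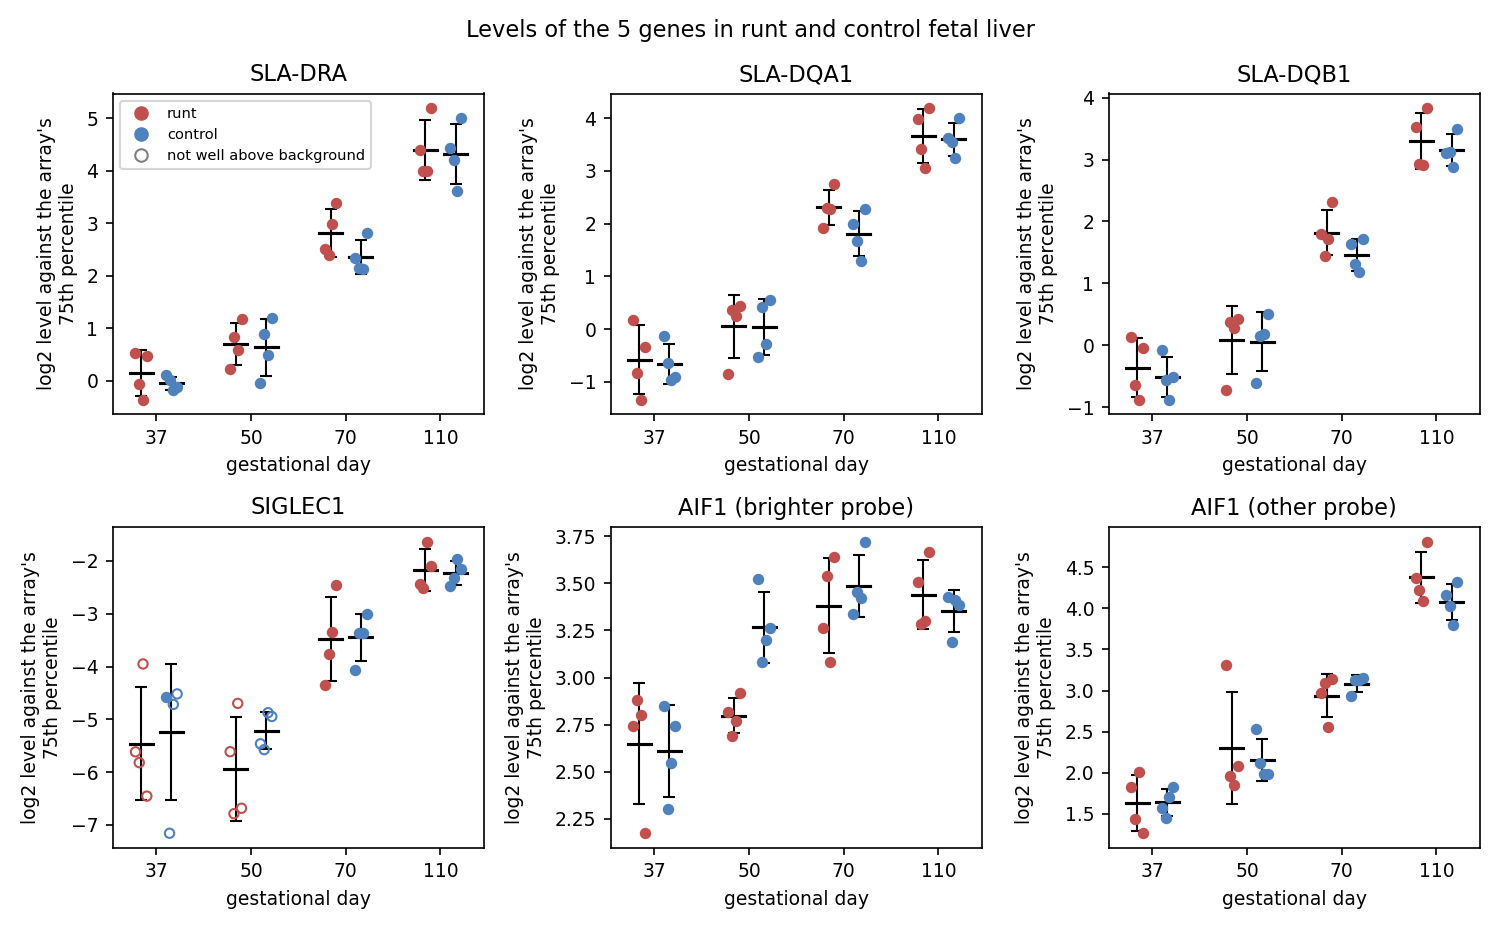
Log2 level (y axis, against the 75th percentile of each array) by gestational day (x axis) at the brightest probe of SLA-DRA, SLA-DQA1, SLA-DQB1, SIGLEC1 and AIF1 and at the other AIF1 probe, each with its own y axis. Points are arrays (runts red, controls blue, open where the probe was not well above background), with the mean as a horizontal line and the SD as a bar (n = 4): the 3 class II genes have separate ranges at days 50, 70 and 110, with runts overlapping controls at each day.

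In the runts the class II genes passed the test in both steps after day 50 and not in the step before it. Between days 50 and 37 no member probe passed the test (adjusted p under 0.05 by limma over 29358 probes, and at least 2-fold), and class II changes ran from 0.41 to 0.81 on the log2 scale with adjusted p from 0.0615 to 0.327. Of all tested probes 4.92% passed as higher in that comparison. At an unadjusted p under 0.05 there were 3 of 11 member probes, against 29.8% of all tested probes. Without the separately scanned array the class II changes were 0.44 to 0.93, again with 0 passing. Between days 70 and 50 all 8 class II probes passed as higher, and 3.29% of all tested probes did so. SIGLEC1 also passed, which made 9 of the 11 member probes. It met the background filter only at days 70 and 110, so its pass is not set against that share. The class II probes rose by 1.49 to 2.26 (log2), a rise of 2.12 ± 0.31 (SE) or 4.34-fold for SLA-DRA (adjusted p = 4.05e-05). SLA-DQA1 rose by 2.26 ± 0.33 (adjusted p = 4.16e-05) and SLA-DQB1 by 1.73 ± 0.28 (adjusted p = 0.000113). Without the separately scanned array of day 50 the same 9 probes passed, with class II rises of 1.32 to 1.96.

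Between days 110 and 70 the class II genes rose again in runts, and 9 of 11 member probes passed, against 4.41% of all tested probes. These were the 8 class II probes, with rises of 1.35 to 1.67, and 1 of the AIF1 probes. SLA-DRA rose by 1.58 ± 0.31 (2.99-fold, adjusted p = 0.000320), SLA-DQA1 by 1.35 ± 0.33 (adjusted p = 0.00324) and SLA-DQB1 by 1.49 ± 0.28 (adjusted p = 0.000217). From the earliest to the latest day, 10 of 11 member probes passed as higher in runts, and 14.9% of all tested probes did. These were the 8 class II probes, 1 AIF1 probe and SIGLEC1, which entered the test only through days 70 and 110. The 8 class II probes rose by 3.64 to 4.26 between days 110 and 37, which for SLA-DRA was 4.26 ± 0.31 or 19.1-fold (adjusted p = 8.90e-12). For SLA-DQA1 the rise was 4.24 ± 0.33 (18.9-fold, adjusted p = 3.41e-11), and for SLA-DQB1 it was 3.66 ± 0.28 (12.6-fold, adjusted p = 2.48e-11). The median change of all tested probes was 0.04, and that of the member probes 3.77.

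The slides fall into a set of 3 and a set of 6, and the runt change from day 37 to day 110 was present in both. Within slides 1 to 3, with 2 runts of each of these days, class II probes were higher by 3.84 to 4.55 at day 110 (adjusted p up to 0.00261). Within slides 4 to 9, also with 2 and 2, they were higher by 3.10 to 4.02 (adjusted p up to 9.02e-06). For days 70 and 50, slides 1 to 3 hold 1 runt of each day, so only the size of the difference is given. There the class II differences were 1.72 to 2.30. Within slides 4 to 9 those of 1.41 to 2.25 passed.

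The control fetuses, whose rises singled the genes out, had day 110 minus day 37 differences of 3.60 to 4.37 at the class II probes, given as a description. Their steps were 0.29 to 0.78 between days 50 and 37, 1.05 to 1.77 between days 70 and 50 and 1.68 to 1.98 between days 110 and 70. Set against the whole change, the class II probes made 40.8 to 53.3% of it between days 50 and 70 in runts, and 29.0 to 43.2% in controls. Between days 70 and 110 they made 31.8 to 44.4% in runts and 42.0 to 50.9% in controls. These shares come from the same group means, and the difference between runts and controls behind them was tested at each day, as follows.

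No difference between runts and controls passed the test in any of the 5 genes. At days 37, 50, 70 and 110, 0 of 11 member probes passed (adjusted p under 0.05 by limma), where the share of all tested probes that passed was 0%, 0.0817%, 0% and 0.0136%. At an unadjusted p under 0.05 there was 1 member probe at day 50 and 0 at the other days. At day 70 all 8 class II probes were higher in runts, by 0.34 to 0.53 on the log2 scale. For SLA-DRA the difference was 0.46, with a 95% confidence interval from -0.18 to 1.09, and for SLA-DQA1 it was 0.50, with an interval from -0.18 to 1.18. Together the 8 intervals of that day reached from -0.25 to 1.18. Each of them included equal levels. Those given for SLA-DRA and SLA-DQA1 also included a difference of 2-fold, which not all of the 8 did. At day 110 class II differences were 0.03 to 0.16, with intervals from -0.62 to 0.75. At day 50 they were -0.09 to 0.23, or 0.05 to 0.34 without the separately scanned array.

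Averaged over the 4 days, the runt effect was 0.11 to 0.21 at the class II probes, with intervals from -0.19 to 0.52. Here 0 of 11 members passed, and 0.255% of all tested probes did. At an unadjusted p under 0.05 there were 0 members, against 9.21% of all tested probes.

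**Figure D2:**
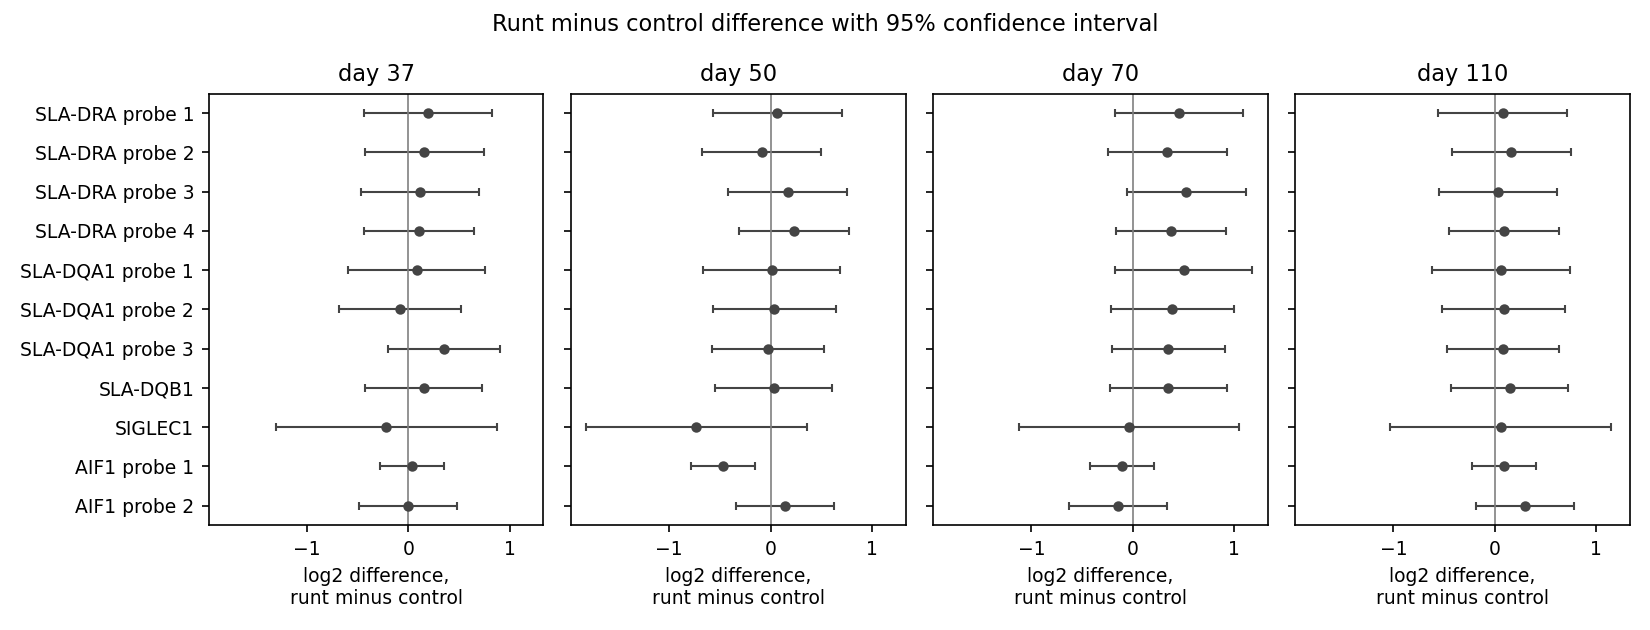
Log2 difference, runt minus control (x axis), with its 95% confidence interval for each of the 11 member probes (y axis) at days 37, 50, 70 and 110. The interval of AIF1 probe 1 (A_72_P176281) at day 50 lies below 0, from -0.78 to -0.15, and all the others include 0.

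The class II genes also moved together from array to array within a group. Over the deviations of the 32 arrays from their group means, class II probes of different genes had Pearson correlations from 0.747 to 0.909, with a median of 0.849 over 19 pairs of probes. Their correlation with SIGLEC1 ran from -0.17 to 0.06, and with the brighter AIF1 probe from 0.03 to 0.34. These values describe probes read on the same arrays, which share each array's scaling, and the class II sequences are related, and whether one gene gave signal on the probe of another was not tested. Replicate 4 held the highest level at all 8 class II probes in both runts and controls of day 70 and of day 110, and at 7 of 8 in runts and 6 of 8 in controls of day 50. At day 37 replicate 1 was highest, at 7 of 8 probes in runts and 8 of 8 in controls. At day 110 the class II probes of replicate 4 averaged 0.70 above the group mean in runts and 0.41 above it in controls. All replicate 4 arrays were on slides 2 and 3, with 75th percentiles of intensity from 177 to 291. Fetus and slide therefore cannot be told apart in this pattern.

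**Figure D3:**
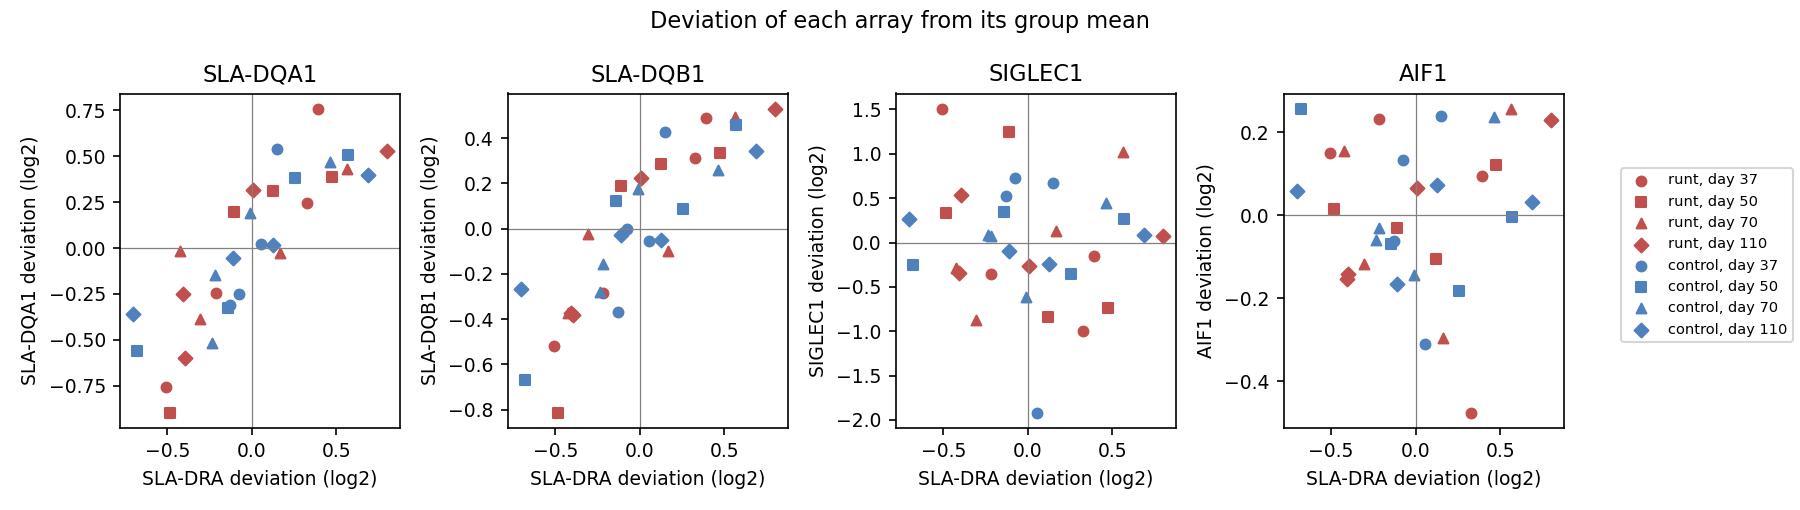
Deviation of each of the 32 arrays from its group mean (log2) at the brightest probe of SLA-DRA (x axis) and of SLA-DQA1, SLA-DQB1, SIGLEC1 and AIF1 (y axes). Colours are runts (red) and controls (blue) and shapes the days: the points of SLA-DQA1 and SLA-DQB1 lie along a rising line with SLA-DRA, and those of SIGLEC1 and AIF1 do not.

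In the RefSeq order of Sscrofa11.1 (the array's own build is not given in the sources used here) SLA-DQA1 and SLA-DQB1 are neighbours with 0 protein-coding genes between them. There are 2 between SLA-DRA and SLA-DQA1, one of which is SLA-DRB1, and 56 between AIF1 and SLA-DRA. AIF1 lies on chromosome 7, as the class II genes do.

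SIGLEC1 was near or below background until day 50 and measurable from day 70. At day 37 its level was -5.62, -5.82, -3.95 and -6.45 in runts, against -4.57, -7.16, -4.72 and -4.52 in controls. At day 50 it was -5.61, -6.79, -4.70 and -6.68 in runts, against -5.46, -5.57, -4.87 and -4.95 in controls. Of these 16 arrays only control replicate 1 of day 37 was well above background, so the order of the others carries little. At day 70 SIGLEC1 was at -4.35, -3.77, -3.35 and -2.46 in runts, against -4.06, -3.37, -3.36 and -3.00 in controls. At day 110 it was at -2.43, -2.52, -1.63 and -2.10 in runts, against -2.47, -2.32, -1.97 and -2.15 in controls. All 16 arrays of these days were well above background, so the probe was tested only through the groups where it was brighter.

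In runts SIGLEC1 was at least 2.36-fold higher at day 70 than at day 50 (measured means -3.48 and -5.95, adjusted p = 0.00144), and at least 2.50-fold without the separately scanned array (adjusted p = 0.00242). At day 110 it was at least 4.86-fold higher than at day 37 (measured means -2.17 and -5.46, adjusted p = 9.15e-06). Both bounds set the dim group at the lowest signal that was well above background on each array, or at the probe's own signal where that was higher. The day 110 minus day 70 difference of 1.31 ± 0.53 missed the threshold in runts (adjusted p = 0.0729). It passed when day 70 runt replicate 4 was left out (1.65, adjusted p = 0.0323), and with day 37 control replicate 2 or day 37 runt replicate 3 left out (1.31 in both, adjusted p = 0.0314 and 0.0480). With a replicate block in the limma fit it passed as well (1.31, adjusted p = 0.0329). In controls, SIGLEC1 was at least 3.10-fold higher at day 70 than at day 50, as a description. Runt minus control differences of SIGLEC1 were -0.22, -0.73, -0.03 and 0.06 at days 37, 50, 70 and 110, with intervals between -1.82 and 1.15, and -0.84 at day 50 without the separately scanned array. Those of days 37 and 50 lie between groups near or below background and carry little. Under a normexp background correction refitted after seeing the data, the runt difference of days 70 and 50 was 0.34 (adjusted p = 0.204) and that of days 110 and 37 was 0.87 (adjusted p = 0.000177), under the 2-fold limit.

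AIF1 was well above background from the first day, and its probes did not follow one course. At the brighter probe (A_72_P176281) the runts of day 37 were at 2.74, 2.88, 2.80 and 2.17 and the controls at 2.85, 2.30, 2.55 and 2.75. At day 50 the runts were at 2.81, 2.69, 2.77 and 2.92 and the controls at 3.52, 3.08, 3.20 and 3.26. At day 50 every runt lay below every control, and of all tested probes 6.32% had runts and controls that did not overlap at that day. At day 70 the runts were at 3.26, 3.54, 3.08 and 3.64 and the controls at 3.34, 3.45, 3.42 and 3.72. At day 110 the runts were at 3.50, 3.29, 3.30 and 3.67 and the controls at 3.43, 3.19, 3.41 and 3.38. The ranges of days 70 and 110 overlapped in both kinds.

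The runt minus control difference of this probe at day 50 was -0.47 ± 0.15, with an interval from -0.78 to -0.15. Its unadjusted p by limma was 0.00523, at a day when 7.53% of all tested probes had one under 0.05, and its adjusted p of 0.341 did not pass. Leaving out 1 array at a time gave -0.53 to -0.38, with adjusted p from 0.225 to 0.736. Between days of the runt course the differences of the brighter probe were 0.15 (days 50 and 37), 0.58 (days 70 and 50, adjusted p = 0.00676) and 0.06 (days 110 and 70). Its day 110 minus day 37 difference was 0.79 ± 0.15 (1.73-fold, adjusted p = 0.000109), under the 2-fold limit. In controls the step between days 50 and 37 was 0.65 and that between days 70 and 50 was 0.22, as a description.

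The other AIF1 probe (A_72_P394883) rose on to day 110. Its runts were at 1.83, 1.44, 2.01 and 1.27 at day 37 and its controls at 1.57, 1.45, 1.71 and 1.83. At day 50 its runts were at 3.32, 1.96, 1.85 and 2.08 and its controls at 2.53, 2.12, 1.98 and 1.99. The separately scanned runt array is the one at 3.32. At day 70 the runts were at 2.97, 3.09, 2.56 and 3.14 and the controls at 2.93, 3.12, 3.13 and 3.15. At day 110 the runts were at 4.37, 4.23, 4.09 and 4.81 and the controls at 4.16, 4.02, 3.80 and 4.32. In both kinds every day 110 array was above every day 70 array. In runts this probe rose by 1.44 ± 0.24 between days 110 and 70 (2.71-fold, adjusted p = 3.38e-05) and by 2.74 ± 0.24 between days 110 and 37 (6.68-fold, adjusted p = 2.01e-10).

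The gap between the AIF1 probes was then followed array by array, a comparison chosen after its values were seen. Only its change over time can be read, since the probes differ in brightness. The other probe minus the brighter one averaged -1.01 ± 0.29, -0.50 ± 0.67, -0.44 ± 0.10 and 0.94 ± 0.15 in runts of days 37, 50, 70 and 110 (SD, n = 4 each). Without the separately scanned array the runts of day 50 averaged -0.83 ± 0.10 (n = 3). In controls the gap averaged -0.97 ± 0.21, -1.11 ± 0.16, -0.40 ± 0.12 and 0.72 ± 0.24. The runt means of days 110 and 70 differed by 1.38, with an exact two-sided permutation p of 0.0286, the smallest that the 70 arrangements allow, or 0.0571 adjusted over 4 comparisons. For days 110 and 37 the difference was 1.95, with the same p. The probes carry the same transcript accession, and which parts or forms of the transcript each one reads was not tested.

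**Figure D4:**
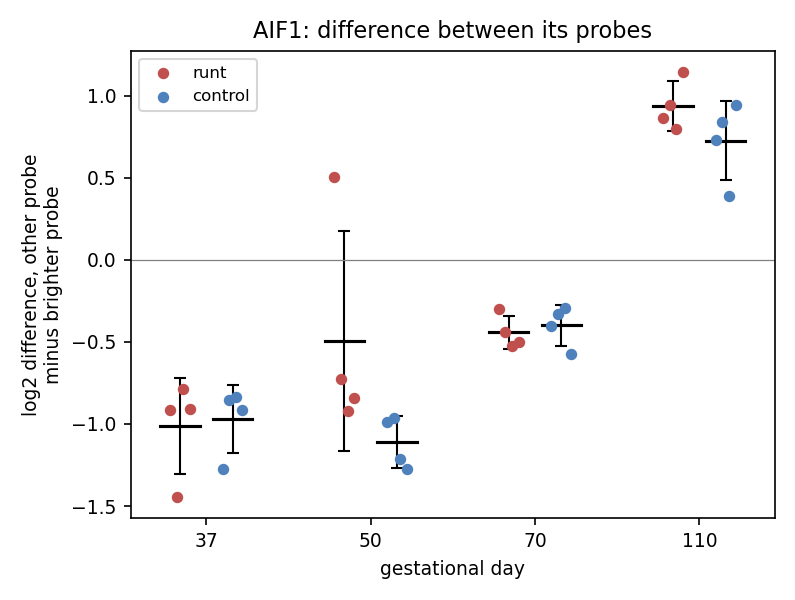
Log2 level of the other AIF1 probe (A_72_P394883) minus that of the brighter one (A_72_P176281) on each array (y axis) by gestational day (x axis), with runts in red and controls in blue, group mean (line) and SD (bar, n = 4). All 8 arrays of day 110 lie above 0, and of the other days only the separately scanned runt array of day 50 does, at 0.50.

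The rest of the class II pathway was read from a list of 32 genes, of which 14 were measured, each at its brightest tested probe. Of the 11 that are not members, between days 110 and 37 in runts 4 rose, 1 fell and 6 did not pass, with a median change of 0.29, against 0.04 over all tested probes. Of all tested probes 14.9% passed as higher and 12.3% as lower. SLA-DRB1 (the DR beta chain) rose by 2.77 ± 0.42 and CD74 (the invariant chain, which guides class II molecules to endosomes) by 2.73 ± 0.24. SLA-DMA and SLA-DMB, the chains of the DM molecule that loads peptides, rose by 2.18 ± 0.23 and 1.65 ± 0.19. CD86, a costimulatory ligand for T cells, fell by 2.44 ± 0.15 on the log2 scale (adjusted p = 6.05e-13). Differences were 0.11, 0.29 and 0.75 for the protease genes CTSB, CTSD and CTSH. They were -0.53 for the thiol reductase IFI30, -0.36 for NFYB, a subunit of the NF-Y factor that binds class II promoters, and 0.23 for the costimulatory receptor CD40. None of these 6 passed both the p and the 2-fold limit.

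The partners were then read step by step in the runts. Between days 70 and 50 CD74 rose by 1.49 ± 0.24 (adjusted p = 9.17e-05) and SLA-DRB1 by 1.17 ± 0.42 (adjusted p = 0.0409), and these were the 2 that passed beside the members. Without the separately scanned array CD74 rose by 1.55 ± 0.26 and SLA-DRB1 no longer passed (0.93 ± 0.44, adjusted p = 0.131). Between days 110 and 70 CD74 rose by 1.34 ± 0.24 and CD86 fell by 1.31 ± 0.15, where 6.83% of all tested probes passed as lower. Between days 50 and 37, 0 of the list passed.

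Of 54 listed Kupffer cell and macrophage markers 26 were measured, and between days 110 and 37 in runts 8 rose, 4 fell and 14 did not pass (median 0.61), where 14.9% of all tested probes passed as higher and 12.3% as lower. Without SIGLEC1 and AIF1 the counts were 7, 4 and 13 of 24. CD14, the lipopolysaccharide co-receptor, rose by 4.34 ± 0.23 and the Fc receptor FCGR3A by 1.66 ± 0.22. The complement chain C1QA rose by 1.32 ± 0.18, LY96, the partner of TLR4, by 1.18 ± 0.17, and TLR2 by 1.13 ± 0.26. CD163, the haemoglobin scavenger receptor, rose by 1.08 ± 0.24 at its brightest probe, while its 2 other probes had differences of 0.77 and 0.83, under the 2-fold limit. SIGLEC1 also rose, and AIF1 at its brighter probe did not pass. The scavenger receptor CD36 fell by 2.08 ± 0.49 (its other probe had a difference of -0.52 and did not pass), GPNMB by 1.31 ± 0.37, CCR1 by 1.28 ± 0.24 and the metal transporter SLC11A1 by 1.01 ± 0.40 on the log2 scale. The macrophage list as a whole was thus not of one direction. When the background was instead corrected by normexp, refitted without 62 aberrant spots (a setting chosen after seeing the data), 6 were higher and 2 lower, with GPNMB, SLC11A1, LY96, TLR2 and SIGLEC1 no longer past the 2-fold limit.

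**Figure D5:**
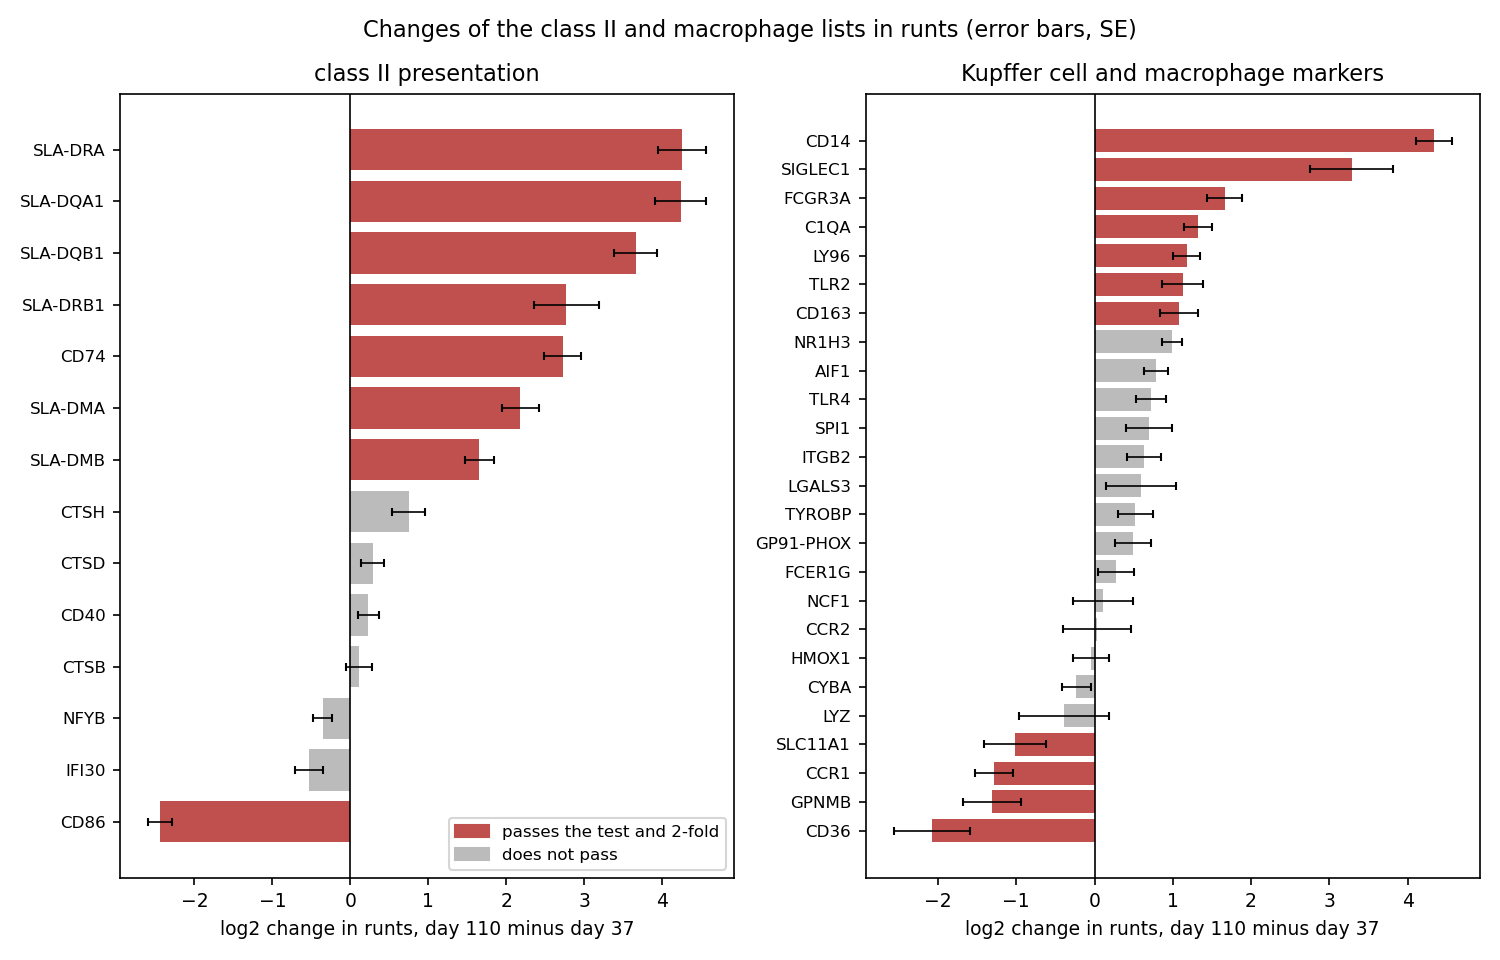
Log2 change in runts, day 110 minus day 37 (x axis, bars with SE), of the measured genes of the class II list and of the Kupffer cell and macrophage list at its brightest probe (y axis). Red bars passed the test and the 2-fold limit and grey bars did not: SLA-DRA at 4.26 and CD14 at 4.34 are at the top and CD86 at -2.44 and CD36 at -2.08 at the bottom.

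Markers of other liver cells that carry class II molecules also moved in these libraries, and their part in the class II rise was not tested. Between days 110 and 37 in runts 14.9% of all tested probes passed as higher and 12.3% as lower. The summed linear level of the 26 macrophage genes, in units of the 75th percentile, ran from 132 to 178 in runts of day 37, 125 to 140 at day 50, 148 to 195.9 at day 70 and 226 to 260 at day 110. In controls it ran from 131 to 183, 136 to 165, 163 to 221 and 201 to 248 at the same days. Of 7 measured dendritic cell markers 3 rose and 1 fell between days 110 and 37 in runts: the chemokine receptor CCR7 was at least 4.15-fold and CD1.1 at least 2.34-fold higher, and TLR7 rose by 1.66 ± 0.47. CCR7 and CD1.1 were not well above background on any day 37 array of either kind, and under the refitted normexp correction 0 of the 7 passed in either direction. The sum of the 7 ran from 0.405 to 2.48 in runts of day 37, 0.518 to 1.10 at day 50, 0.506 to 2.51 at day 70 and 0.798 to 3.21 at day 110, so its ranges overlapped, and all control arrays lay between 0.445 and 2.97.

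Of 5 measured B cell markers 3 passed as higher in runts over the same days and 0 as lower. Of all tested probes 14.9% passed as higher and 12.3% as lower. VPREB1, a surrogate light chain of precursor B cells, was at least 11.2-fold higher, CD79A at least 1.48-fold and BLNK at least 1.26-fold. All 3 were not well above background on any day 37 runt array, so they were tested only through groups where they were brighter, and the bounds of CD79A and BLNK lie under 2-fold. Under the refitted normexp correction only VPREB1 passed, and the values of CD79A and BLNK were 0.22 and 0.11. The sum of the 5 was 0.314 to 0.699 in runts of day 37, 0.488 to 0.752 at day 50, 0.848 to 1.10 at day 70 and 0.753 to 1.57 at day 110. In controls it was 0.428 to 0.778, 0.468 to 0.910, 0.767 to 25.8 and 0.603 to 1.11 at the same days. The day 70 controls had a median of 1.13, so the array at 25.8 stood far above the others. Of 9 T and natural killer cell markers 6 passed as higher and 1 as lower, with CD3G at least 4.10-fold and CD2 at least 1.36-fold higher and KLRK1 lower by a log2 change of -3.25. Among those that passed as higher, CD2, CD3E, CD3G, CD4 and CD8A were not well above background on any day 37 runt array. Under the refitted normexp correction 0 passed as higher and KLRK1 still as lower. Of 12 endothelial markers 8 rose and 1 fell (6 and 1 under that correction), among them NOS3 by 2.08 and the Fc receptor FCGR2B by 4.08, while SELP fell by 2.65 on the log2 scale. The other NOS3 probe had a difference of 0.87 and did not pass (adjusted p = 0.0559 by limma).

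Genes of the signals that act on macrophages and class II expression were read in the same way, where 14.9% of all tested probes passed as higher and 12.3% as lower. Interferon gamma is known to switch on class II genes, and of 23 measured interferon response genes 12 rose, 1 fell and 10 did not pass (median 1.04). The GTPase GBP1 rose by 5.37 ± 0.49, the chemokine CXCL10 by 4.17 ± 0.42 and the transcription factor IRF1 by 2.39 ± 0.19. JAK2 fell by 1.17 on the log2 scale. RSAD2, among the 12, was not well above background on any day 37 runt array. Under the refitted normexp correction 10 of the 23 passed as higher and 0 as lower (median 0.59). The rises of GBP1, CXCL10 and IRF1 were then 2.40, 3.38 and 1.81, so their size depends on the background correction. Of 14 macrophage growth factors and chemokines 7 rose and 0 fell, with CCL2 higher by 4.28 ± 0.32, CCL4 by 1.13 ± 0.21 and CCL21 at least 5.25-fold higher. CCL21 and IL6, both among the 7, were not well above background on any day 37 runt array. These genes were thus tested only through groups where they were brighter. Under the refitted normexp correction 3 of the 14 passed, with CCL2 at 2.08, and CCL4 did not. Of 13 class I presentation genes 6 rose and 0 fell, among them the immunoproteasome subunits PSMB9 (1.42 ± 0.24) and PSMB8 (1.40 ± 0.31) and SLA-2 (1.35 ± 0.32). PSMB8 did not pass under the refitted normexp correction (0.81). Of the remaining lists, in which all tested probes passed as higher in 14.9% and as lower in 12.3%, 8 of 18 hepatocyte markers rose and 0 fell, 1 of 9 granulocyte markers rose and 1 fell, and 2 of 8 stellate cell markers rose and 1 fell. All 4 erythroid markers and all 7 cell cycle genes fell.

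Between runts and controls, 0 of the 169 genes of these lists passed at any of the 4 days by limma, with 8, 14, 2 and 5 at an unadjusted p under 0.05 at days 37, 50, 70 and 110. Of all tested probes 2.55%, 7.53%, 1.82% and 4.41% had such a p at these days. At day 50 the macrophage list had a median difference of -0.21, with 4 of 26 genes above 0, and all tested probes had a median of -0.02. At day 70 the class II list had a median difference of 0.20, with 12 of 14 genes above 0, and all tested probes had a median of 0.02.

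The genes most like each member were then sought among 2249 named probes of other symbols, and the correlations describe the 32 arrays. The nearest to SLA-DRA over all arrays were CD74 (0.991), SLA-DMA (0.976), IRF1 (0.967), GBP1 (0.966) and the kinase JAK1 (0.965). CD74 and SLA-DMA were the nearest 2 also for SLA-DQA1 (0.983 and 0.974) and for SLA-DQB1 (0.985 and 0.977). Once the group means were taken out, SLA-DRA stayed nearest to CD74 (0.842) and SLA-DMA (0.818), followed by FGL2 (0.715). SLA-DMA was the nearest to SLA-DQA1 (0.791) and to SLA-DQB1 (0.808) on that measure. For SIGLEC1 the nearest over all arrays were SLA-DMB (0.909), CD3G (0.886) and the cytokine IL10 (0.882), and over deviations DCPS (0.764) and LY86 (0.719), read with most arrays of days 37 and 50 near background. For the brighter AIF1 probe they were CDH1 (0.864) and LBP (0.849) over all arrays, and C1QA (0.782) and SLA-DMB (0.668) over deviations.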

How the data were processed

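The data are 32 single-colour Agilent arrays of pig fetal liver. Per the file headers, Feature Extraction 10.7.3.1 produced the deposited processed signal, a background-subtracted intensity per spot. A deposited table of the authors' log2 values, tied to Partek by the submitters' processing notes, served as an alternative. Control and outlier spots were left out, spots of a probe averaged, and the log2 intensity taken minus that of the array's 75th percentile. Probes were named through transcript accessions matched without versions to RefSeq (Sscrofa11.1): 2683 of 43603 matched. A probe was tested when well above background on at least 3 of 4 arrays of at least 1 group, as 29358 were. With limma 3.58.1 under R 4.3.3, a model of 8 group means was applied to the 32 arrays together (24 residual degrees of freedom, 255 missing values in tested probes, none in members), two-sided, with Benjamini-Hochberg adjustment over all tested probes. The fit was tested on simulated data. A pass needed an adjusted p under 0.05 and, between days, a change of at least 2-fold. The number of arrays limits the precision, and no saturated spot was found.

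The members and gene lists were chosen with earlier results of these data known. All members were named; list genes were read at the probe with the highest mean, naming the passing genes of the class II and macrophage lists (1 macrophage gene is counted but not reported here) and up to 3 with the smallest adjusted p of the others. Likeness took the 5 highest correlations. The planned normexp alternative (offset 50) used the median signal, since no mean signal column was present, and 3 further versions were chosen after seeing the data. Other alternatives were quantile normalization, the deposited table, other background filters and fold limits, 1 probe per symbol, slide and replicate blocks, slide sets and leaving out each array. The refitted normexp correction named in the results leaves out 62 spots far below their local background. Replicate numbers were not taken as pairs: of 16 same-numbered runts and controls, 13 deviated together with a correlation over 0.1. No label says that the fetuses of a group came from separate litters beyond the 4 pregnancies of a day, so p-values measure the spread between these samples. Sequences were not used here.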

Additional observations from a re-analysis of the deposited data

Results flagged for a closer look

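Of 88 groups of 4 arrays, 7 held an array whose distance from the nearest of the others took a larger share of the group's range than Dixon's 95% critical value allows, and chance gives about 1 in 20 groups. Day 50 runt replicate 1, the separately scanned array, accounted for 3 of them: it was the lowest at SLA-DQA1 probe A_72_P244477 (-0.84) and at SLA-DQB1 (-0.73), and the highest at AIF1 probe A_72_P394883 (3.32). Day 70 control replicate 4 was the highest at SLA-DRA probe A_72_P328748 (2.25) and at SLA-DQA1 probe A_72_P227742 (0.77). Day 70 control replicate 1 was the lowest at AIF1 probe A_72_P394883 (2.93), where the group spanned 2.93 to 3.15. Day 37 control replicate 2 was the lowest at SIGLEC1 (-7.16), where it was not well above background.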

How the results depend on the processing

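Leaving out 1 array at a time, 9 to 9 member probes passed between days 70 and 50 in runts, 9 to 10 between days 110 and 70 and 10 to 10 between days 110 and 37, and 0 to 0 in each comparison of runts with controls. Quantile normalization, the deposited table, other filters and fold limits, and slide blocks left every count within 1.5 times. With 1 probe per symbol, where 5 probes stand for the genes, 4 passed between days 70 and 50, 3 between days 110 and 70 and 4 between days 110 and 37. Within slides 1 to 3, with 1 or 2 arrays of a group, the steps to and from day 70 in runts rest on 1 array of that day and were not read as tests. The median control difference of the member probes between days 110 and 37 was 4.24 there (3.66 in the full data). With a replicate block 9, 10 and 10 passed in these 3 comparisons (SIGLEC1 then also passed between days 110 and 70, at 1.31), and 0 in each comparison of runts with controls. Same-numbered runts and controls correlated from -0.09 to 0.43, and 10 of 16 runts correlated best with the control of their own number. Replicate numbers went with slides, as all replicate 4 arrays were on slides 2 and 3, so litter and slide cannot be told apart here.

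On 6 runt arrays 62 spots lay more than 50 intensity units below their local background, and the background mean that the planned normexp correction fitted there was -991 to -70.9, against -3.49 to 20.7 on the other 26. With this correction 4 member probes passed between days 70 and 50, 4 between runts and controls at day 50 and 4 in the mean runt effect. The median of all probes moved by 0.40 between runts and controls at day 50, where 17406 of 29358 probes passed. SIGLEC1 took the other sign, with -0.27 between days 70 and 50 in runts, 1.22 between runts and controls at day 50 and 0.58 in the mean runt effect. Relative to the median of all probes in each comparison these values were -0.01, 0.82 and 0.39. The median control difference of the member probes was 1.00 between days 70 and 50 (1.41 in the full data) and 3.09 between days 110 and 37. In versions chosen after seeing the data, fitting by maximum likelihood gave 4, 4 and 4 probes, -0.26, 1.21 and 0.58 for SIGLEC1, and 1.01 and 3.09 for the medians. By the rma75 estimator they were 0, 7 and 6 probes, -0.37, 1.90 and 0.96, and 3.16 for days 110 and 37. Without the 62 spots, fitted background means were -10.6 to 20.7 and 8 probes passed between days 70 and 50 in runts, 10 between days 110 and 37 and 0 between runts and controls. SIGLEC1 then differed by 0.34 between days 70 and 50 (adjusted p = 0.204) and by 0.87 between days 110 and 37 (adjusted p = 0.000177, under 2-fold), AIF1 at its brighter probe by 1.02 between days 110 and 37, which passed, and the control medians were 1.00 and 3.09. The size of the SIGLEC1 rise, at a dim probe, therefore depends on the background correction. Of 93 passing genes of the lists between days 110 and 37, 35 did not pass under the planned normexp correction (5 with the other sign), 31 without the 62 spots (0 with the other sign), 2 under quantile normalization and 3 in the deposited table. Of 2290 single-gene values of the members under all alternatives, 28 crossed the threshold with their direction kept and 135 took the other sign, 9 of these with a call on either side.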

Other observations

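The lists of other cells and of the cell cycle were read over the same runt comparison of days 110 and 37, by the same test. All 4 measured erythroid markers fell, with a median of -4.58 on the log2 scale: the embryonic globin HBE1 by a log2 change of -7.36, the transferrin receptor TFRC by -4.82 and the erythropoietin receptor EPOR by -4.33. All 7 cell cycle genes fell, with a median of -3.72, among them CCNB1 (-4.57), AURKA (-4.48) and CDK1 (-4.11). Of 18 hepatocyte markers 8 rose, with the clotting factors F10 (2.08) and F9 (1.87) and the adhesion protein VTN (1.56) among them. Of 9 granulocyte markers the lectin FCN2 rose by 3.74 and RETN fell by 1.38 on the log2 scale. Of 8 stellate cell and fibroblast markers RGS5 was higher by 3.65, THY1 at least 1.61-fold higher and TIMP1 lower by a log2 change of -1.05. THY1 was not well above background on any day 37 runt array. Under the normexp correction without the 62 spots THY1 (0.12) and TIMP1 (-0.69) did not pass, and RGS5 did. All tested probes passed as higher in 14.9% and as lower in 12.3%.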
